A study of Mus musculus with 2 samples.

Results

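The cell cycle genes described here are 40 genes whose products act in DNA replication or in mitosis, measured in the right ventricle of mouse pups on postnatal day 21. They were listed by name, 15 for S phase and 25 for mitosis, by a rule that uses no measured value but with earlier results of these data known, and all 40 were found among the 27999 features of the deposited count matrix (39 by symbol and Knl1 by its gene identifier, since the matrix lists it under the older symbol Casc5). Each cell type was described by the share of its cell barcodes that carried at least 2 molecules of the list, at full depth and after each barcode had been thinned to 1000 molecules. A molecule here is a unique molecular identifier (UMI), the tag by which 3' droplet sequencing counts each captured transcript once.

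The series holds 2 libraries from 1 group, and both carry the genotype CBP flox/flox, p300 flox/flox and Trap flox/flox on the C57/BL6J strain. The pups received an adeno-associated virus of serotype AAV9 on postnatal day 1 to delete p300 and CBP, a pair of related histone acetyltransferases. The labels name neither the promoter and cargo of the virus nor the number of animals behind a library, and there was no untreated or virus-free control, so no effect of the deletion could be measured. The tissue had been frozen, digested with collagenase and enriched with CD45 magnetic beads, which select leukocytes, yet 48.2% of the barcodes kept here were cardiomyocyte-like and 3.79% macrophage-like.

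Proliferating cells switch these genes on in waves. Replication genes, among them the Mcm helicase that unwinds origins and the polymerases and nucleotide enzymes that serve it, are transcribed from late G1 under E2F factors. Mitotic genes follow in G2 through the CHR promoter element bound by the DREAM and MuvB complexes with B-MYB and FOXM1. Mouse cardiomyocytes largely leave the cell cycle in the first weeks after birth, often after a last round of replication without cell division, while fibroblasts, vascular cells and resident macrophages keep dividing at a low rate.

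After filters and removal of doublets, 20480 barcodes remained, 11834 in library 1 and 8646 in library 2. Clusters, formed without the 40 genes, were named from marker lists. They gave 7 classes with at least 50 barcodes in both libraries, which entered the test, namely cardiomyocyte-like (7625 in library 1 and 2245 in library 2), fibroblast-like (1144 and 2475), endothelial-like (555 and 929), endocardial-like (140 and 993), macrophage-like (254 and 522), pericyte-like (371 and 405) and epicardial or mesothelial-like cells (65 and 575). Lymphatic endothelial-like (49 and 190), Schwann or glial-like (34 and 53) and smooth muscle-like cells (55 and 22) were smaller, and 7 clusters with 1779 barcodes stayed unnamed. The libraries stood apart: 2 of the cardiomyocyte-like clusters came mostly from library 1 (4352 of 4612 and 2907 of 3115 barcodes). Another, led by the Y-linked genes Uty, Eif2s3y, Kdm5d and Ddx3y, came mostly from library 2 (1741 of 1866), so that animal sex and library cannot be told apart. A small cardiomyocyte-like cluster (82 and 7 barcodes) was led by the atrial genes Nppa, Sln, Myl4 and Myl7, and an unnamed one of 296 barcodes, all of library 1, by liver genes such as Alb and Apoa2. The libraries shared 17 barcode sequences, 0.133% of those of library 1 and 0.180% of those of library 2.

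The class names rested on their own marker lists. The macrophage list, 9 genes including Csf1r and C1qa, summed to 11183 counts per 1000000 UMIs (CPM) in library 1 and 9718 CPM in library 2 in macrophage-like cells. The cardiomyocyte list of 12 genes summed to 58813 and 69494 CPM in cardiomyocyte-like cells, and to between 10471 and 21018 CPM in library 1 and between 1926 and 7398 CPM in library 2 in the other classes. Heart muscle RNA was thus counted in every class, more so in library 1, and its part in the results was not tested. No cell count per animal was given, so shares are shares of captured barcodes.

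The promoters of the list show which regulatory sequences its S-phase and mitosis genes share. RefSeq promoters on GRCm38.p6, running from 250 bases before to 50 bases after the start, were matched for 35 of the 40 genes. The CHR letters TTTGAA were present, on either strand, in 17 of 22 mitosis genes and 1 of 13 S-phase genes (Mcm2), against 20.2% of all 27025 genes with a promoter. E2F letters (TTTCCCGC, TTTCGCGC, TTTGCCGC or TTTGGCGC, on either strand, with overlapping matches counted) were present in 6 of 13 S-phase genes and 2 of 22 mitosis genes, against 2.61% of all genes. CCAAT, on either strand, was present in 29 of 35, against 41.1%. A match of these letters is a description and not evidence of binding. The 200 bases before the start are printed for 4 mitosis genes with CHR letters and 3 S-phase genes with E2F letters, 5′ to 3′ on the gene's strand, with capitals marking CHR, E2F and CCAAT letters. The windows lie at chr10:69352913-69353112 on the minus strand (Cdk1, the mitotic kinase), chr11:99024190-99024389 on the minus strand (Top2a, the topoisomerase that untangles chromosomes), chr2:164769729-164769928 on the plus strand (Ube2c, a ubiquitin carrier of mitotic exit) and chr7:135716380-135716579 on the minus strand (Mki67, the Ki-67 chromosome coat protein). The S-phase windows lie at chr1:128359706-128359905 on the minus strand (Mcm6) and chr8:75109309-75109508 on the plus strand (Mcm5), both helicase subunits, and at chrX:93632156-93632355 on the minus strand (Pola1, the catalytic subunit of DNA polymerase alpha).
Cdk1: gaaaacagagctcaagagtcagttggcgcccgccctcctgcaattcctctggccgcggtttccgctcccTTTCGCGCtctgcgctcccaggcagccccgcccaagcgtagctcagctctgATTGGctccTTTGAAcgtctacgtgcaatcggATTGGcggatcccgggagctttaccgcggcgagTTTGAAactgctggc
Top2a: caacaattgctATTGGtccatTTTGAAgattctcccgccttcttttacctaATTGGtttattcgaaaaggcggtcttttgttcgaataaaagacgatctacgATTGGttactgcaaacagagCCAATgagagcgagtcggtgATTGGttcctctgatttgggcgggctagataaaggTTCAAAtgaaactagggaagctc
Ube2c: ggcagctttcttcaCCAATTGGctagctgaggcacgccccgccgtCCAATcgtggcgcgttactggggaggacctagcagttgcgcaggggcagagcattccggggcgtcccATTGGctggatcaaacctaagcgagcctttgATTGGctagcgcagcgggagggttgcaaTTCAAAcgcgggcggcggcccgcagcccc
Mki67: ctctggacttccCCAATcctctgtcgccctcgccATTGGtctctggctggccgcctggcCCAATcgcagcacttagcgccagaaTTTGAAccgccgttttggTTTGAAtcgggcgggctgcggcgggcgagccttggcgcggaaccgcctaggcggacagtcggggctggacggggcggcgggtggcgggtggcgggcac
Mcm6: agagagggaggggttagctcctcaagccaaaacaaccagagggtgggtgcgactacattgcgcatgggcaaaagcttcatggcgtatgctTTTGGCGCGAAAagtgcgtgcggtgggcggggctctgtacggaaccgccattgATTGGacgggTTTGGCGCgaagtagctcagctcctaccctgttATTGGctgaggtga
Mcm5: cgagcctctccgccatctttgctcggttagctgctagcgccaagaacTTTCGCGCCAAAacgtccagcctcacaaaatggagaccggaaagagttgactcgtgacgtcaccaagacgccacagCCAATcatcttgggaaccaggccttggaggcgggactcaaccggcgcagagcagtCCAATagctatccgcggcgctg
Pola1: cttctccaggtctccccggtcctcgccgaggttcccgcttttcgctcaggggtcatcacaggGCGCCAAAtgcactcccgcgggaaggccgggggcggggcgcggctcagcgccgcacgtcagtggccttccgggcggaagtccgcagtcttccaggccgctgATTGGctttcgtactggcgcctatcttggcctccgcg

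In these windows the CHR letters nearest the start began 15 bases before it in Cdk1, 23 in Top2a and 29 in Ube2c, while the pair in Mki67 began 98 and 116 bases before it. Cdk1 was the only one of the printed mitosis genes that also held E2F letters, 131 bases before the start. Pola1 and the 2 Mcm genes held E2F letters and no CHR letters, with the E2F match of Pola1 on the opposite strand 138 bases before the start. Pola1, whose counts are set apart from those of the other genes in what follows, thus has a promoter window of the same kind as Mcm5 and Mcm6.

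At full depth the share of barcodes with at least 2 list UMIs followed depth as well as cell type. It was 15.97% in library 1 and 28.3% in library 2 in cardiomyocyte-like cells, whose median depth was 4738 and 7390 UMIs. Fibroblast-like cells stood at 13.6% and 26.8% with a median of 1890 and 3088 UMIs, and macrophage-like cells at 22.8% and 51.3% with 1721 and 3143 UMIs. Epicardial or mesothelial-like cells had 38.5% and 50.3%, lymphatic endothelial-like cells 30.6% and 41.1%, and pericyte-like cells the lowest values of the tested classes, 7.28% and 14.3%. Each of the 7 tested classes had a higher share in library 2, the deeper library in each of them. At full depth cardiomyocyte-like cells could not be told from fibroblast-like cells in library 2, where the exact 95% Clopper-Pearson intervals were 26.5 to 30.2% and 25.1 to 28.6%.

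Thinned to 1000 UMIs, the order changed. In cardiomyocyte-like cells 63 of 7473 barcodes (0.84%, exact 95% interval 0.648 to 1.08%) of library 1 and 23 of 2238 (1.03%, 0.653 to 1.54%) of library 2 kept at least 2 list UMIs. In macrophage-like cells 36 of 244 (14.8%, 10.6 to 19.8%) and 99 of 516 (19.2%, 15.9 to 22.9%) did so. The intervals of these classes lay far apart in both libraries, and macrophage-like cells had the highest share of the 7 tested classes in each, although in library 1 their interval overlapped that of epicardial or mesothelial-like cells (2.54 to 17.0%) and, outside the test, of lymphatic endothelial-like cells (3.47 to 22.7%). Thinning left out 152 and 7 cardiomyocyte-like and 10 and 6 macrophage-like barcodes that had fewer than 1000 UMIs. All intervals cover counting error only, and with 2 libraries no test of the shares was made.

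The other classes lay between. Fibroblast-like cells had thinned shares of 5.04% and 5.75%, endocardial-like cells 5.11% and 5.31%, and epicardial or mesothelial-like cells 7.69% and 10.3%. Lymphatic endothelial-like cells stood at 10.4% (5 of 48 barcodes) and 7.94% (15 of 189). The lowest of the non-muscle classes with 50 barcodes in both libraries were pericyte-like cells at 1.97% and 2.83%, whose intervals (0.728 to 4.25% and 1.42 to 5.003%) overlapped those of endothelial-like cells (2.01%, 0.967 to 3.66%, and 4.96%, 3.64 to 6.58%). In Schwann or glial-like cells 0 of 28 barcodes of library 1 passed, which allows a share of up to 10.7%, and in smooth muscle-like cells 0 of 22 barcodes of library 2, which allows up to 13.6%. These small classes cannot be placed in the order at this depth. The mean of the 2 libraries in epicardial or mesothelial-like cells, 8.997% ± 1.85 (SD, n = 2), was 5.42% with a second random thinning, so a single draw moved that class by more than the difference between libraries.

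**Figure D1:**
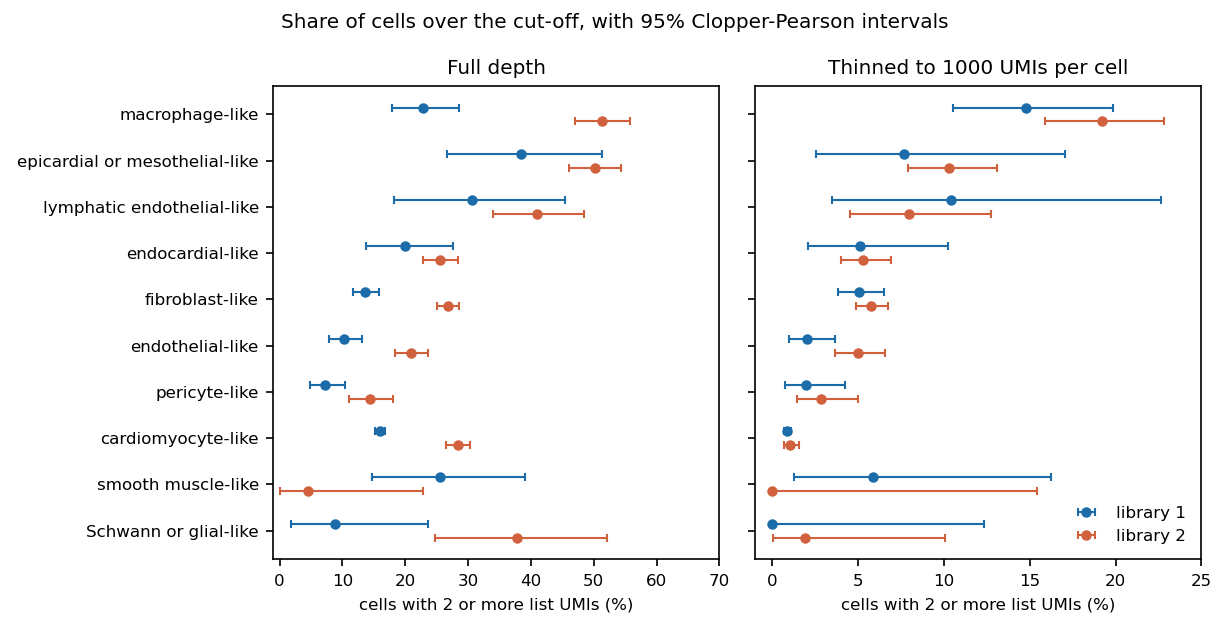
Percent of barcodes with at least 2 UMIs of the 40 cell cycle genes, by cell class and library (points), at full depth and thinned to 1000 UMIs, with exact 95% intervals as bars. Cardiomyocyte-like cells stand at 15.97% and 28.3% at full depth and at 0.84% and 1.03% after thinning, while macrophage-like cells are highest of the 7 tested classes after thinning, at 14.8% and 19.2%.

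What passed the cut-off differed between classes. Of the cardiomyocyte-like cells over it at full depth, 64.5% in library 1 and 54.1% in library 2 held exactly 2 list UMIs, and 23.2% and 27.8% owed them to a single gene. Without Pola1, 42.0% and 42.5% of them fell under the cut-off. Of the macrophage-like cells over it, 41.4% and 25% held UMIs of 5 or more different list genes, against 0.657% and 1.57% of the cardiomyocyte-like ones. The same cut-off therefore picked mostly barcodes with a few scattered UMIs in cardiomyocyte-like cells, and a good part of barcodes with many list genes in macrophage-like cells.

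Barcodes with UMIs of at least 5 different list genes numbered 256 of 20480, 66 in library 1 and 190 in library 2. Macrophage-like cells gave 24 and 67 of them (9.45% and 12.8% of the class), endocardial-like cells 3 and 29, epicardial or mesothelial-like cells 2 and 23, fibroblast-like cells 8 and 19, with a further 3 and 16 (6.12% and 8.42%) in lymphatic endothelial-like cells. Cardiomyocyte-like cells, 48.2% of all barcodes, gave 8 and 10 (0.10% and 0.45%), endothelial-like cells 2 and 5, and pericyte-like cells 1 and 0. Schwann or glial-like cells gave 2 and smooth muscle-like cells 1. The other 33 lay in unnamed clusters, 8 and 7 of them in a small cluster led by S100a9 and Skap1, a neutrophil and a T cell gene. A further 17 and 64 such barcodes had been removed as doublets.

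The 18 cardiomyocyte-like barcodes of this kind differed from the macrophage-like ones in depth and content. Their median was 15268 UMIs, against 5312 for the class, while the 91 macrophage-like barcodes had 3965, against 2584.5. Of the 18, 11 held more S-phase than mitosis genes and 6 the reverse, and of the 91, 28 and 57. At the stricter count of 10 or more list genes, 133 barcodes remained, 59 of them macrophage-like and 2 cardiomyocyte-like, both in library 2, and 104 of the 133 held more mitosis than S-phase genes. One cardiomyocyte-like barcode of library 2 carried 19 of the list genes, and the highest in any barcode was 34, in a lymphatic endothelial-like cell of library 2. The part of depth and of doublets that the caller missed in these 18 barcodes was not tested.

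The 256 barcodes held 33.2% of all 24425 list UMIs. They carried 80.9% of those of lymphatic endothelial-like cells, 73.9% of macrophage-like, 52.3% of endocardial-like, 48.4% of epicardial or mesothelial-like and 25.7% of fibroblast-like cells, but 2.83% of cardiomyocyte-like and 1.29% of pericyte-like cells. Summed over the 25 mitosis genes, the level in macrophage-like cells was 1210 CPM in library 1 and 720 CPM in library 2, and 128 and 136 CPM once these barcodes were left out. The same sums were 29.4 and 40.9 CPM in cardiomyocyte-like cells and 29.0 and 36.8 CPM without them, and 62.6 and 61.5 CPM in pericyte-like cells, 61.2 and 61.5 CPM without them. Without the 256 barcodes the mitosis sums of the 7 tested classes ran from 29.0 to 149 CPM, against 29.4 to 1210 CPM with them. Most of the spread of the mitosis genes between classes thus lay in few barcodes. These barcodes were chosen by the same counts, so a fall of the sums without them was built in, and the values are a description.

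The 15 S-phase genes were spread more evenly. Their sum was 357 and 543 CPM in macrophage-like cells and 205 and 318 CPM without the 256 barcodes, and it was 91.9 and 95.8 CPM in cardiomyocyte-like cells. S-phase genes made up 75.8% and 70.1% of list UMIs in cardiomyocyte-like and 72.5% and 75.2% in pericyte-like cells, against 22.8% and 43.0% in macrophage-like and 23.9% and 29.5% in lymphatic endothelial-like cells. The 2 libraries differed in macrophage-like cells, where library 1 had the higher mitosis sum and library 2 the higher S-phase sum.

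**Figure D2:**
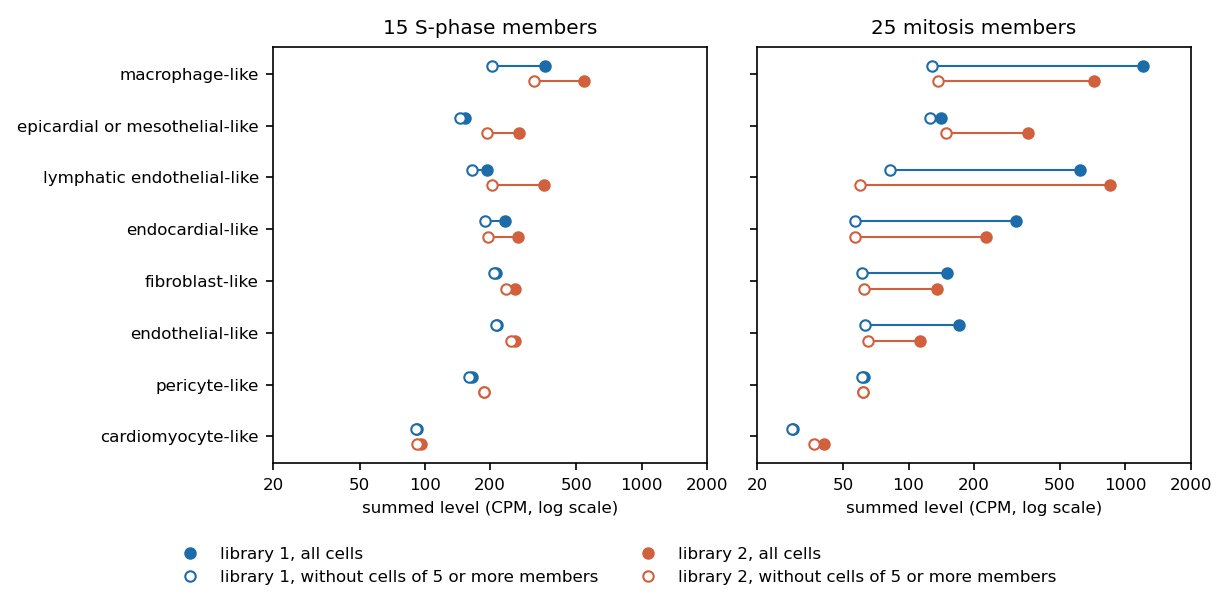
Summed level of the 25 mitosis and the 15 S-phase genes in CPM (log axis) by cell class and library, over all barcodes and without those that hold UMIs of 5 or more different list genes. In macrophage-like cells the mitosis sum goes from 1210 and 720 CPM to 128 and 136 CPM, while in cardiomyocyte-like cells it stays at 29.4 and 40.9 against 29.0 and 36.8 CPM.

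Among single genes, the S-phase and mitosis members also parted by how their UMIs were spread over barcodes. The list holds 25 mitosis and 15 S-phase genes, and the 256 barcodes held 5908 mitosis and 2210 S-phase UMIs. The part of this list make-up in the contrast was not tested. For each gene, the percentage of its UMIs found in barcodes with at least 5 other list genes had a median of 16.4% over the S-phase genes and 66.2% over the mitosis genes. It was highest for Bub1, a spindle checkpoint kinase (89.4%), Top2a (86.0%), Mki67 (80.6%), Ccnb1, the B-type cyclin partner of Cdk1 (80.3%), Ncapg, a condensin subunit (78.6%), and Knl1, the kinetochore scaffold (73.8%). The lowest were Mcm7, a helicase subunit (5.36%), Pola1 (9.49%), Tyms, thymidylate synthase (10.6%), Mcm4 (11.3%) and Pcna, the sliding clamp of DNA polymerases (12.8%). Of the 21 genes above 50%, 20 were mitosis genes and the other was Brca1, the homologous recombination protein. The 9 genes under 20% were S-phase genes without exception. The mitosis genes lowest in this measure were Ccnb2, a second B-type cyclin (23.4%), Smc2, the condensin ATPase (28.2%), and Cenpf, a kinetochore and nuclear matrix protein (33.4%).

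The 5 genes with most UMIs were Pola1 (5774, or 23.6% of the list), Atad2, a chromatin ATPase of S phase (1777), Diaph3, a formin that builds actin filaments at the cleavage furrow (1640), Hells, a chromatin remodeler of replicating cells (1172), and Cenpf (1014). Counts of 3' tags were not compared between genes as expression levels. Pola1 lies on chromosome X over a span of 327 kb, 52.0% of the barcodes with a Pola1 UMI had no UMI of any other list gene, and 9.49% of its UMIs lay in barcodes with at least 5 other list genes. Diaph3, with a span of 486 kb, had 54.4% of its UMIs in such barcodes. Across the 40 genes, the Spearman correlation of gene span with UMIs outside such barcodes was 0.27 and with UMIs inside them 0.76, given as a description over genes that share libraries and depth. Span thus ordered the UMIs of the member-rich barcodes more closely than the scattered ones.

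**Figure D3:**
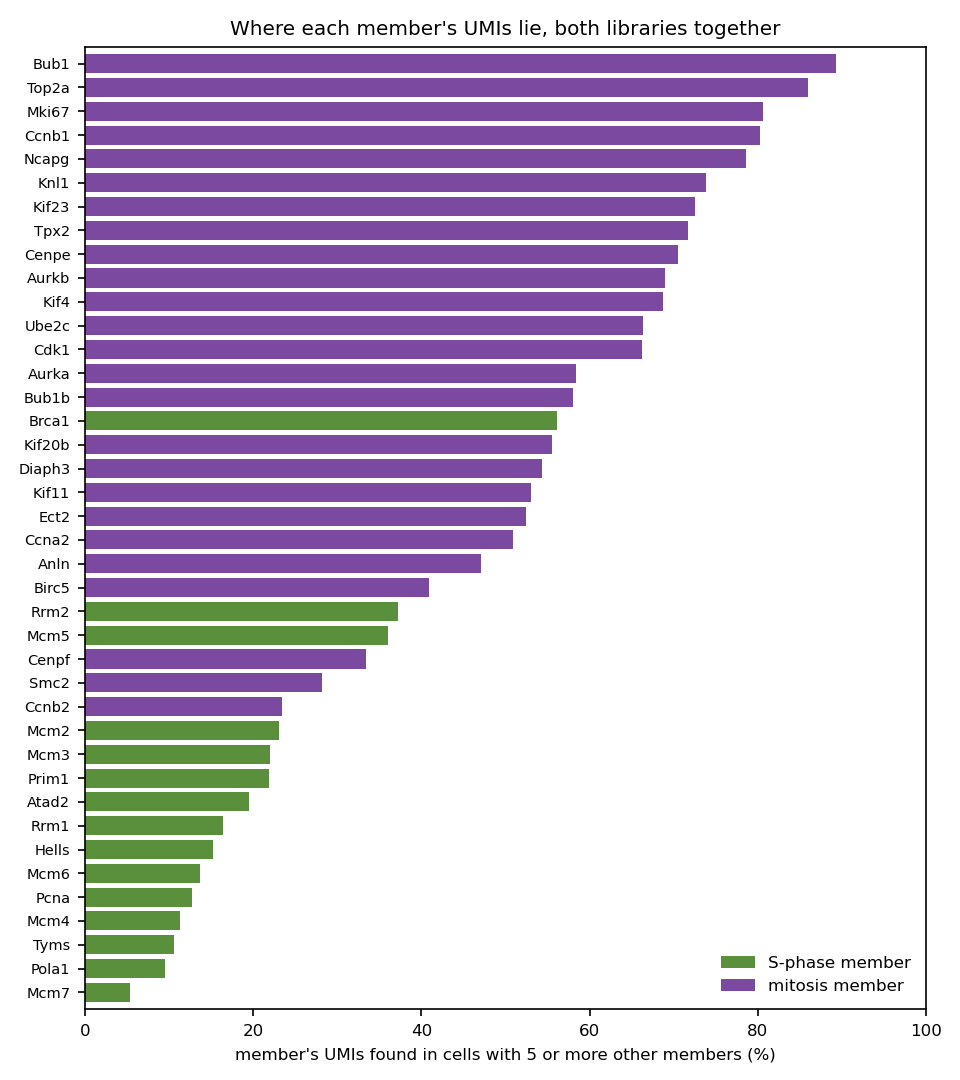
Percent of each gene's UMIs, both libraries together, that lie in barcodes with UMIs of at least 5 other list genes, 1 bar per gene, coloured by S-phase or mitosis. Bub1, Top2a, Mki67 and Ccnb1 lead with 89.4%, 86.0%, 80.6% and 80.3%, and 9 S-phase genes, among them Pola1 at 9.49% and Mcm7 at 5.36%, lie under 20%.

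Cell types held unequal parts of each gene, counted here over both libraries, which differ in their make-up of classes. Macrophage-like cells, with 2.94% of all kept UMIs, held 50.8% of the UMIs of Kif23, the central spindle kinesin of cytokinesis, 33.3% of Aurkb, the Aurora kinase of the chromosomal passenger complex, 33.1% of Bub1b, 30.9% of Cenpe, the centromere kinesin, 29.9% of Top2a and 29.0% of Mki67. Cardiomyocyte-like cells, with 66.1% of all kept UMIs (83.4% in library 1 and 45.1% in library 2), held 56.2% of Hells, 56.0% of Cenpf, 53.8% of Mcm7, 51.1% of Tyms, 49.2% of Ccnb2 and 47.2% of Pola1 UMIs. They held 3.93% of Kif23, 5.65% of Top2a and 7.43% of Cdk1 UMIs. All 9 of these values lay below the part of all UMIs that the class held, the last 3 by the most.

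The test compared each class with the mean of the 6 others on the log2 scale, on UMI counts summed per library and class. It used edgeR's quasi-likelihood test with Benjamini-Hochberg adjustment over 14434 genes. Of the 40 genes, 38 passed the filter on low counts, and Ccnb1 and Aurka, a centrosomal Aurora kinase, did not. Since every class stands in the comparison of the others, the 7 comparisons are not independent. A gene that passed the filter through a single class had to differ in it, so the counts of called genes are given as descriptions. Aurkb, Bub1 and Ncapg, with low levels outside macrophage-like cells, may be such genes, and their values are descriptions too. The p-values measure only how the class differences varied between the 2 libraries, with library as a block, and that spread may be technical. The labels do not say whether the 2 libraries came from separate animals. Of the data, the cluster led by Y-linked genes bears on this, and it came mostly from library 2.

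In macrophage-like cells 30 of the 38 tested genes were higher and none was lower at adjusted p under 0.05 in edgeR, while over all genes tested 17.3% were higher and 12.5% lower. The median log2 difference of the 38 was 1.99, against -0.10 over all genes. At an unadjusted p under 0.05 the counts were 32 higher and 0 lower, and with DESeq2 29 and 0. Of the 23 mitosis genes tested 21 rose and of the 15 S-phase genes 9. By role, all 6 tested spindle kinases and motors, all 5 kinetochore and checkpoint genes, all 4 chromosome structure genes and all 5 cytokinesis and mitotic exit genes rose, and so did 6 of 9 licensing and replication genes and 3 of 3 S-phase chromatin and repair genes, against 1 of 3 cyclin and CDK genes and none of the 3 nucleotide supply genes. The fibroblast marker list stood at 596 and 2029 CPM in these cells, higher in library 2, against 7348 and 10989 CPM in fibroblast-like cells, and the T or NK cell list at 5.85 and 3.998 CPM. The B cell list stood at 203 and 948 CPM, less than the 1998 to 5175 CPM it reached in pericyte-like, endothelial-like, endocardial-like and fibroblast-like cells. In pericyte-like cells 2 and 3 of the 6 B cell genes had any count, against 3 and 6 in macrophage-like cells. The sum does not tell which genes of the list gave the counts, and B cell RNA in macrophage-like cells was not tested. The part of other cell types in the result was not tested.

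Top2a stood at 105 CPM in library 1 (54 UMIs) and 65.3 CPM in library 2 (147 UMIs) in macrophage-like cells, and at 0.464 to 36.1 CPM in the other 6 classes. Both libraries of macrophage-like cells lay above every other tested class, and the log2 difference was 3.52 ± 0.28 (SE), with adjusted p = 3.4e-07. Mki67 stood at 115 and 49.8 CPM against 0 to 16.3 CPM elsewhere, a log2 difference of 3.46 ± 0.41 (adjusted p = 1.84e-05). Knl1 stood at 74.1 and 46.6 CPM against 0 to 21.7 CPM (3.40 ± 0.27, adjusted p = 2.71e-07). These 3 genes share the pattern that library 1 was the higher and that neither library overlapped another tested class.

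Kif23 reached 103 and 85.7 CPM, against 0 to 16.9 CPM in the other tested classes. Pericyte-like cells had no Kif23 UMI in either library. With that class set at 3 counts over both libraries, Kif23 was at least 26.3-fold higher in macrophage-like cells than the geometric mean of the others (adjusted p = 9.33e-09 in edgeR). In the same way Brca1 (33.1 and 19.5 CPM) was at least 10.4-fold, Bub1 (19.5 and 9.33 CPM) at least 10.2-fold and Anln, the furrow scaffold anillin (68.2 and 45.8 CPM), at least 7.90-fold higher. These 4 genes had adjusted p-values of at most 0.000138 in edgeR. The geometric mean averages log2 levels, so very low classes pull it down, as cardiomyocyte-like cells did for Kif23 (0.305 CPM pooled). The words at least cover the class at 0 only, not the counting error of the other classes.

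Among the other mitosis genes, Cenpe (81.9 and 38.6 CPM) was higher by 3.25 ± 0.26 on the log2 scale, Bub1b, the checkpoint pseudokinase (29.2 and 19.99 CPM), by 3.46 ± 0.36, and Kif11, the kinesin that separates spindle poles (68.2 and 24.4 CPM), by 3.01 ± 0.38. Aurkb reached 33.1 CPM (library 1) and 5.33 CPM (library 2), from 17 and 12 UMIs. Its log2 difference of 3.72 ± 0.62 (adjusted p = 0.000447) is a description, since it may have passed the filter through this class alone. Library 1 was therefore the higher for these genes by a factor that differed from gene to gene. Kif20b, a cytokinetic kinesin (46.8 and 33.3 CPM, 2.91 ± 0.31), Birc5, survivin of the passenger complex (37.0 and 16.4 CPM, 2.99 ± 0.46), Tpx2, the activator of Aurora A (48.7 and 22.2 CPM, 2.75 ± 0.36), and Ncapg (11.7 and 9.33 CPM, 2.76 ± 0.45) rose as well. Diaph3 was at 129 and 110 CPM (2.65 ± 0.20), but epicardial or mesothelial-like cells had 75.1 and 142 CPM, so the classes overlapped. Cdk1, at 19.5 and 6.22 CPM from 10 and 14 UMIs, was close to the threshold (1.91 ± 0.62, adjusted p = 0.0326).

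S-phase genes in macrophage-like cells divided into called and uncalled ones. Pola1, at 134 and 237 CPM, lay above the 40.9 to 113 CPM of the other tested classes, a log2 difference of 1.26 ± 0.14 (adjusted p = 7.86e-06). Its higher library was library 2, the reverse of the mitosis genes. Mcm5 (5.85 and 10.7 CPM, from 3 and 24 UMIs) was higher by 2.40 ± 0.59, Mcm2 by 1.87 ± 0.40, Prim1, the primase subunit, by 1.63 ± 0.35, Mcm3 by 1.38 ± 0.42 and Mcm6 by 1.11 ± 0.35. Mcm7 stood at 9.75 and 10.7 CPM, inside the range of the other classes (4.81 to 18.6 CPM), with a log2 difference of -0.38 that was not called. Mcm4, Pcna, Tyms, Rrm1 and Rrm2, the last 2 the subunits of ribonucleotide reductase, were not called either, nor were the cyclins Ccna2 and Ccnb2.

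With each library taken alone, where no test is possible, the median log2 difference of the tested genes in macrophage-like cells was 2.86 in library 1 and 1.87 in library 2. The direction was shared by both libraries, and library 2, with more than 2 times the macrophage-like cells, had the smaller value. The class joined 2 clusters, one of 238 and 363 barcodes (library 1 and library 2) and one of 16 and 159. The summed list level was 1614 and 1854 CPM in the first and 1198 and 716 CPM in the second. The part of this cluster make-up in the difference between libraries was not tested.

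In cardiomyocyte-like cells 24 of the 38 tested genes were lower and none was higher in edgeR, while over all genes tested 29.7% were lower and 35.3% higher. The median of the 38 was -1.89, and -2.04 with the classes at 0 set at 3 counts, against 0.05 over all genes. At an unadjusted p under 0.05 the counts were 26 lower and 0 higher, and with DESeq2 28 and 0. S-phase genes accounted for 9 of 15 and mitosis genes for 15 of 23. Removing the scaling between sums shifted the median of all genes by -0.59 in this class and by 0.21 in macrophage-like cells, and then 30 of the list genes were lower in cardiomyocyte-like cells. Chromosome structure genes were lower in 4 of 4 cases, licensing and replication genes in 7 of 9, spindle kinases and motors in 4 of 6, kinetochore and cytokinesis genes in 3 of 5 each, and nucleotide supply, S-phase chromatin, and cyclin and CDK genes in 1 of 3 each.

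Cdk1 gave 10 UMIs in library 1 and 1 UMI in library 2 over all cardiomyocyte-like cells, 0.232 and 0.0522 CPM, against 0 to 19.5 CPM in the other tested classes. Its log2 difference of -4.15 ± 0.68 (adjusted p = 0.000114) rests on these few UMIs. Top2a stood at 0.464 CPM (exact 95% Poisson interval 0.284 to 0.717) and 0.940 CPM (0.557 to 1.49), below the 1.60 to 105 CPM of the other tested classes in both libraries, a difference of -3.81 ± 0.45 (adjusted p = 5.35e-06). Mki67 stood at 0.766 and 1.72 CPM, above the 0 CPM of pericyte-like and epicardial or mesothelial-like cells in library 1 and below the other values, with a difference of -2.74 ± 0.58 (adjusted p = 0.000988). Top2a, but not Mki67 or Cdk1, was thus lowest of the tested classes in each library.

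Tpx2 (0.534 and 0.366 CPM) had a log2 difference of -3.64 ± 0.44, Kif4, a chromosome-arm kinesin (0.604 and 0.470 CPM), one of -3.38 ± 0.41, Cenpe (0.720 and 0.731 CPM) one of -3.25 ± 0.33 and Diaph3 (2.02 and 2.40 CPM) one of -3.19 ± 0.26. Those of Bub1b, Kif20b, Ncapg, Knl1, Ube2c and Aurkb lay between -2.91 and -2.15. Among S-phase genes the largest differences were those of Prim1 (1.11 and 0.784 CPM, -2.33 ± 0.35) and Mcm5 (0.279 and 0.418 CPM, -2.10 ± 0.74). Atad2 (7.15 and 5.85 CPM, -1.99), Mcm3 (-1.99), Mcm6 (-1.69), Pcna (-1.62) and Rrm1 (-1.50) followed. The called replication genes thus came after the leading mitosis genes, a difference that was not itself tested.

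Several of the list genes with most UMIs did not follow. Pola1 stood at 40.9 and 50.5 CPM in cardiomyocyte-like cells, with a log2 difference of -0.28 that was not called, and made up 33.7% and 37.0% of the list UMIs of the class. Hells, at 10.7 and 10.3 CPM, had a difference of 0.27, and Cenpf, at 8.03 and 11.6 CPM, one of 0.37. Tyms (-0.22), Mcm7 (-0.42) and 5 further tested genes, Kif11, Ccnb2, Brca1, Birc5 and Ccna2, were not called. Pericyte-like cells had no UMI of Kif23, Bub1, Anln, Rrm2 or Brca1, so the fitted differences of these 5 depend on how the 0 is treated, and those of the first 4 had standard errors of over 5 in this class. Their pooled levels in cardiomyocyte-like cells were 0.305, 0.129, 2.12, 0.434 and 0.980 CPM. For Brca1 the fitted difference was -0.11, and -1.86 with pericyte-like cells at 3 counts.

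**Figure D4:**
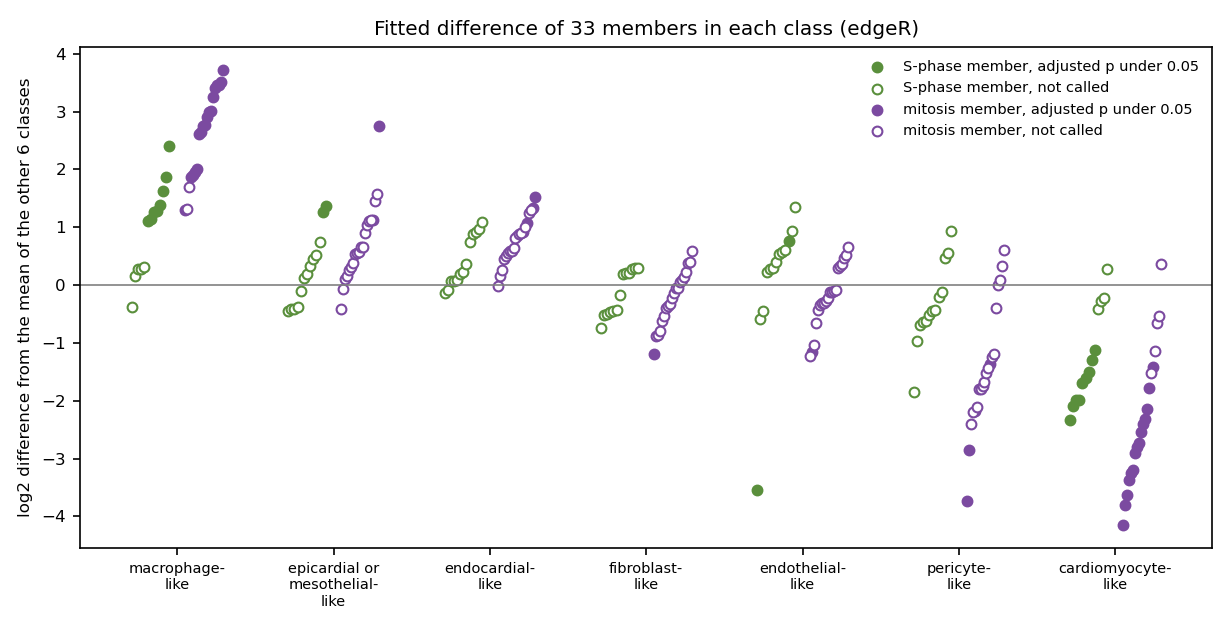
Log2 difference of 33 tested genes (vertical axis) in each class against the mean of the 6 others, 1 point per gene, filled where adjusted p is under 0.05; the 5 genes at 0 in pericyte-like cells are left out. Filled points lie above 0 in macrophage-like and below 0 in cardiomyocyte-like cells, where Pola1, Hells and Cenpf are open points at -0.28, 0.27 and 0.37.

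By library, without a test, the median of the tested genes in cardiomyocyte-like cells was -1.11 in library 1 and -1.53 in library 2. The summed list level differed little between the clusters that split the libraries. It was 117 and 137 CPM (library 1 and library 2) in the largest cluster of library 1, 122 and 129 CPM in its second, and 132 and 137 CPM in the cluster led by Y-linked genes.

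Endocardial-like cells, the lining of the ventricle, showed 7 higher genes of 38 and none lower in edgeR (13 and 0 at an unadjusted p under 0.05, 5 and 0 with DESeq2), while 13.6% of all genes were higher and 8.15% lower. The count of higher genes is not far from the share over all genes. All 7 were mitosis genes, and the median was 0.78 (0.70 with classes at 0 set at 3 counts). Top2a, at 36.1 and 18.0 CPM, was higher by 1.53 ± 0.35 (adjusted p = 0.00685), and Knl1, Cenpe, Diaph3 and Smc2 by 0.86 to 1.34. Kif23 was at least 2.60-fold and Bub1 at least 2.64-fold higher than the geometric mean of the other classes. With the marked doublets kept the count was 1, and with lymphatic endothelial-like cells added to the test it was 2, so most of these calls depended on which cells stood in the comparison.

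Epicardial or mesothelial-like cells, the outer covering of the heart, showed 6 higher genes of 38 and none lower in edgeR (8 and 1 at an unadjusted p under 0.05, 5 and 0 with DESeq2), with 19.0% of all genes higher and 14.3% lower. The count of higher genes is near the share over all genes and says nothing particular about the list. Diaph3, at 75.1 CPM from 25 UMIs in library 1 and 142 CPM from 460 UMIs in library 2, was higher by 2.74 ± 0.20 (adjusted p = 1.6e-07). Rrm1 (27.0 and 35.8 CPM, 1.26 ± 0.28) and Mcm2 (1.36 ± 0.42) also rose. Anln had 3.003 CPM (library 1) and 37.7 CPM (library 2) and was at least 5.13-fold higher in the joint test, but its difference in library 1 alone was -0.78. Likewise Top2a rose by 1.13 ± 0.37 with a difference of -0.11 in library 1 alone. Rrm2 (3.003 and 5.87 CPM, from 1 and 19 UMIs) was at least 3.79-fold higher. The median of all tested genes was 0.56 (0.48 with classes at 0 set at 3 counts), with -0.83 in library 1 alone and 0.63 in library 2 alone, so the direction rested on library 2, which held 575 of the 640 barcodes.

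Endothelial-like cells showed 1 higher and 2 lower genes (15.5% and 12.0% of all genes) and a median of 0.07. Atad2, at 45.9 and 55.1 CPM, was higher by 0.77 ± 0.20 (adjusted p = 0.0108), and Diaph3, at 9.57 and 12.2 CPM, had a difference of -1.16 ± 0.30. Mcm2 gave 0 UMIs in library 1 and 1 UMI in library 2, or 0.420 CPM there (exact 95% Poisson interval 0.0106 to 2.34), and was also called lower (adjusted p = 0.0048), a call that rests on these counts.

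Fibroblast-like cells showed 1 higher gene, Rrm2 (4.76 and 2.59 CPM), at least 1.89-fold, and 1 lower gene, Kif4 (2.38 and 2.71 CPM, -1.20 ± 0.41), while 16.6% of all genes were higher and 12.4% lower. Their median was -0.05. Both calls were lost with doublets kept. Their 19 barcodes with 10 or more list genes all lay in a single cluster.

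Pericyte-like cells, which wrap capillaries, showed 6 lower genes, all mitosis genes, and none higher in edgeR (15 and 0 at an unadjusted p under 0.05, 6 and 0 with DESeq2), while 8.83% of all genes were lower and 10.7% higher. The median was -1.31, and -0.88 with classes at 0 set at 3 counts. Diaph3 stood at 1.60 and 9.07 CPM (-2.18 ± 0.42, adjusted p = 0.00207) and Smc2 at 6.42 and 7.06 CPM (-1.37 ± 0.38). Anln and Kif23 gave no UMI in either library, at least 5.89-fold and at least 3.47-fold lower than the geometric mean of the others. Knl1 gave 2 and 0 and Kif11 1 and 0 UMIs. The count was 12 with doublets kept and 10 without the filter on low counts.

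Lymphatic endothelial-like cells, which line lymph vessels, had 49 barcodes in library 1 and entered the test only in an alternative with a minimum of 40, chosen after the data had been seen. There 26 of 38 list genes were higher and none lower in edgeR (28 and 1 at an unadjusted p under 0.05), with 11.9% of all genes higher and 7.25% lower. Of the 24 mitosis genes tested 23 rose, and of the 14 S-phase genes 3. Top2a, at 71.5 and 77.6 CPM, was higher by 2.9997 on the log2 scale, and Ncapg (15.3 and 21.9 CPM), Ube2c (10.2 and 17.9 CPM) and Tpx2 (35.8 and 54.7 CPM) by 3.39, 3.37 and 3.14. Over both libraries these 4 genes gave 92, 25, 20 and 62 UMIs. The 3 and 16 barcodes with 5 or more list genes held 80.9% of the list UMIs of the class. Aurka, at 15.3 and 11.9 CPM, passed the filter on low counts only once this class was added, so its call, 1 of the 26 and of the 23, is no result. Pola1, at 20.4 and 73.6 CPM, had a difference of -0.65 that was not called. The called genes here were mostly mitosis genes, as in macrophage-like cells.

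Regulators of the same pathway were examined in 5 lists, whose counts are to be read against the 17.3% of all genes called higher and 12.5% called lower in macrophage-like cells. There 9 of 19 genes of the E2F, RB and DREAM group rose and 3 fell. They included Foxm1, the transcription factor of mitotic genes (13.6 and 6.22 CPM, at least 5.04-fold higher), E2f8, an atypical repressor (5.85 and 6.22 CPM, at least 5.24-fold), and E2f1, the G1/S activator (9.75 and 19.99 CPM, 3.21 on the log2 scale), while Tfdp2, an E2F dimerization partner, fell by 1.25. With both libraries pooled, Foxm1 reached at most 2.63 CPM and E2f8 at most 3.08 CPM in another tested class. Both may have passed the filter on low counts through macrophage-like cells alone, so their values are descriptions. Of 20 licensing and checkpoint genes 5 rose and none fell, not far from the share over all genes. They were led by Cdc25c, the phosphatase that activates Cdk1 (9.75 and 2.22 CPM from 10 UMIs, at least 7.23-fold), Chek1, the replication checkpoint kinase (2.09), and Cdc6, the origin licensing factor (1.96). With both libraries pooled, Cdc25c reached at most 1.18 CPM in another tested class with a count, and cardiomyocyte-like cells gave 1 UMI. Cdc25c too may have passed the filter on low counts through macrophage-like cells alone, so its call, 1 of the 5, and its value are descriptions. Among 7 D and E cyclins and G1 kinases, Ccnd3 (1047 and 907 CPM, 1.80) and Cdk6 (1.20) rose and Ccnd2 fell by 1.05. Among 5 CDK inhibitors, Cdkn1c, the p57 inhibitor, fell by 1.42 and none rose.

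In cardiomyocyte-like cells, where 35.3% of all genes were called higher and 29.7% lower, the D-type cyclins were low, with Ccnd1 (2.46 and 2.77 CPM) falling to a log2 difference of -2.51, Ccnd3 of -2.34 and Ccnd2 of -1.25, while Ccne2 (0.67) and Cdk6 (0.41) rose, in all 2 of 7 up and 4 of 7 down. Of the 5 CDK inhibitors 2 were lower and none higher, Cdkn1c (0.720 and 1.78 CPM) having a difference of -3.92 and Cdkn2d one of -1.01. Among the E2F, RB and DREAM genes 6 of 19 rose and 7 fell, near the shares over all genes. Tfdp2 (610 and 706 CPM, 2.19), E2f6, a repressor (1.57), and Lin52, a MuvB subunit (1.26), rose, and E2f1 (-2.64), Rbl1, the p107 pocket protein (-2.56), and Mybl2, which encodes B-MYB (-1.23), fell. Of 20 licensing and checkpoint genes 5 rose, led by Atr (0.84), Gmnn (0.74) and Atm (0.45), and 6 fell, led by Cdc25b (-3.60), Chek2 (-3.45) and Cdc20 (-2.77). Of 11 regulators tied to cardiomyocyte cell cycle exit 5 rose, among them Ccng1 (1.58), Tbx20 (1.22) and Yap1 (1.16), and 1, Nrg1, which marks endocardium, fell by 2.52. Pericyte-like cells had no UMI of E2f7, E2f8, Foxm1 or Cdc25c, so the fits of these genes depend on how the 0 is treated. With that class at 3 counts, their differences in cardiomyocyte-like cells were -4.41, -1.33, -3.08 and -6.26, from 15, 42, 19 and 1 UMIs. None of them was called in the fit. As called, the counts of the E2F and licensing lists are near those of all genes and are not read as a result about these lists. With 2 of 5 CDK inhibitors lower and 5 of 11 exit regulators higher, those short lists are not set apart from the shares over all genes either. The values of Cdk6 and Atm are smaller than the shift of -0.59 that removing the scaling gave in this class.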

How the data were processed

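The authors deposited 1 matrix of whole-number UMI counts per gene and barcode, made with Cell Ranger 6.0.0 per the file headers, with 3' chemistry per the labels' protocols. The submitters' processing notes also name fastp, Trimmomatic, Seurat, edgeR and the builds GRCm38 and mm10, without roles. Barcodes were assigned to library 1 (57982200 UMIs, 12736 barcodes) or library 2 (50199793 UMIs, 9447) by their suffix, and no column of another sample was present (0 columns unused). The median mitochondrial share was 0.338% and 0.229%, and 4021 features had no count.

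From these counts, barcodes with at least 500 UMIs, at least 200 genes and at most 25% mitochondrial UMIs were kept (22137 of 22183). Doublets were scored against simulated ones (6.04% and 6.91% marked; 48.6% and 56.9% of simulated doublets passed the same threshold), and these barcodes and clusters with at least 40% marked were removed (1657). Clustering used 2000 variable genes, 30 principal components, 15 neighbours and Leiden resolution 1 (leidenalg 0.10.2), leaving out the 40 genes, the pathway lists and mitochondrial genes. Members, marker lists and pathway lists were chosen with earlier results of these data known, and the scoring rule for naming clusters was set after the data had been seen. A difference between classes can come from these rebuilt names.

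Sums per library and class were tested with edgeR 4.0.16 (R 4.3.3, TMM, filterByExpr, quasi-likelihood, library as block, 14 sums, 6 residual degrees of freedom, biological coefficient of variation 0.161), with Benjamini-Hochberg adjusted p under 0.05 as the threshold. All sums of 1 library share a suspension, which pairs them. DESeq2 1.42.0 was an alternative. Named are all called genes, up to 15 per class from the largest difference down, and the 5 genes with most UMIs. On simulated data for the cardiomyocyte comparison (13739 genes), 86.5% of 89 genes changed 2-fold and 98.9% of 91 genes changed 4-fold were recovered, with 14 unchanged genes called. CPM is UMIs per 1000000 UMIs of a class in a library. A count of 0 allows up to 3 counts. Folds given as at least were taken against the geometric mean of the other classes, with a class at 0 set at 3 counts.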

Additional observations from a re-analysis of the deposited data

How the results depend on the processing

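The numbers of genes called higher in macrophage-like cells (27 to 33) and lower in cardiomyocyte-like cells (23 to 30) stayed within 1.5 times of the reported 30 and 24 over all 10 other fits. Smaller counts moved. Without the low-count filter, 11 genes were higher in endocardial-like and 3 in endothelial-like cells, and 3 were lower in fibroblast-like and 10 in pericyte-like cells. With doublets kept, 1 was higher in endocardial-like, 2 higher and 1 lower in endothelial-like, 3 higher and 1 lower in epicardial or mesothelial-like, 0 higher and 0 lower in fibroblast-like and 12 lower in pericyte-like cells. With a minimum of 40 cells, 2 were higher in endocardial-like cells and 0 higher and 3 lower in fibroblast-like cells. Without the replicate block, in which library pairs the sums, 0 were higher in endothelial-like and 0 lower in fibroblast-like cells; the block changed no other count by over 1.5 times. At resolution 2, 4 were higher in endothelial-like cells, and at resolution 0.5, 2 were lower in fibroblast-like cells. Without scaling, fibroblast-like cells had 2 higher and 0 lower, and with DESeq2 0 higher. With library 1 alone, Anln (-0.78, against 2.65 with library 2 alone) and Top2a (-0.11, against 1.17) reversed in epicardial or mesothelial-like cells. The causes were not tested.

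The thinned share, as the mean of both libraries, moved with depth. At 500 UMIs it was 0.267% in cardiomyocyte-like, 2.06% in fibroblast-like, 2.28% in endocardial-like, 10.8% in macrophage-like, 1.41% in pericyte-like, 1.99% in epicardial or mesothelial-like and 5.46% in lymphatic endothelial-like cells. At 2000 UMIs these were 3.14%, 13.1%, 11.1%, 35.0%, 12.2%, 15.5% and 18.2%, with 15.5% in endothelial-like and 14.98% in Schwann or glial-like cells. A second random seed gave 0.788% in cardiomyocyte-like, 4.55% in fibroblast-like, 5.38% in endocardial-like, 3.19% in pericyte-like, 5.42% in epicardial or mesothelial-like, 7.08% in lymphatic endothelial-like and 4.62% in Schwann or glial-like cells. Requiring 2 different genes gave 0.607%, 3.72%, 4.38% and 1.52% in cardiomyocyte-like, fibroblast-like, endocardial-like and pericyte-like cells, and leaving out Pola1 gave 0.435%, 3.23%, 3.30% and 1.39%. With doublets kept the endocardial-like share was 4.78%. At full depth without Pola1, the shares were 12.8% in cardiomyocyte-like and 15.7% in endocardial-like cells. Macrophage-like cells had the highest thinned share of the 7 tested classes in each of these settings.

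The replicates are 2 libraries, so leaving one out gives the other's value and no test. At resolution 2 epicardial or mesothelial-like cells had under 50 barcodes in library 1 and no value. Depth limits the small classes most.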

Other observations

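Other regulators of the list differed among the non-muscle classes. E2f7, an atypical E2F repressor, reached 25.8 CPM (library 1) and 27.3 CPM (library 2) in endothelial-like cells, against 7.22 and 7.56 CPM in endocardial-like and 15.6 and 9.77 CPM in macrophage-like cells. Pericyte-like cells gave no UMI of it in either library. With that class at 3 counts, E2f7 was at least 11.5-fold higher in endothelial-like cells than the geometric mean of the 6 other tested classes (adjusted p = 9.5e-07 in the edgeR quasi-likelihood test). That mean was pulled down by cardiomyocyte-like cells at 0.241 CPM with both libraries pooled, while macrophage-like cells stood at 10.9 CPM. Of the 38 tested list genes 1, Atad2, rose in endothelial-like cells.

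Cdkn1c was high in 3 of the 7 classes. It stood at 57.8 and 66.8 CPM in endocardial-like (2.06 on the log2 scale, adjusted p = 1.14e-05), 47.8 and 50.02 CPM in endothelial-like (1.71, adjusted p = 5.03e-05) and 30.0 and 71.1 CPM in epicardial or mesothelial-like cells (1.87, adjusted p = 2.42e-05), and at 0.720 and 1.78 CPM in cardiomyocyte-like cells. Ccnd1, the D-type cyclin, was high in endocardial-like cells at 67.4 and 34.4 CPM (1.57, adjusted p = 0.000586) and in epicardial or mesothelial-like cells at 39.0 and 37.7 CPM (1.32, adjusted p = 0.00189). A cyclin and an inhibitor that act on the same kinases were thus both higher in these 2 classes.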
